A study of Rattus norvegicus with 8 samples.

Results

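The ubiquitin-conjugating enzymes (E2s, the Ube2 genes) and the ubiquitin-specific proteases (USPs, the Usp genes) attach ubiquitin to proteins and take it off again. The genes described here are those whose name on the array begins with Ube2, or with Usp followed by a digit, with 2 matching names left out by the rule that set the group. The rule gave 80 genes, 31 Ube2 and 49 Usp, of 36306 gene names on the array, and it used no measured value. The members were, however, chosen with earlier results of these data known. They are read by 123 probes, single-stranded sequences of 60 bases. The cells were NR8383, a line of alveolar macrophages established from the lung lavage of a normal rat. Control cultures were kept for 4 h in medium without fetal bovine serum and without particles, and exposed cultures for 4 h in the same serum-free medium with 0.17 µg/mL NM401, a multi-walled carbon nanotube. Each group has 4 arrays, 1 per replicate, which the submitters call biological replicates without saying how the cultures were separated, so p-values measure the spread between these samples. The series asks which genes change in macrophages exposed to the nanotube, and the comparison here asks how the enzymes that conjugate ubiquitin moved beside those that remove it.

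Ubiquitin is first loaded onto an E1 activating enzyme with the use of ATP, is passed to an E2, and is joined to a lysine of the target with the help of an E3 ligase. The E2 often decides which kind of chain is built: some E2s add the first ubiquitin, others extend a chain through 1 particular lysine, and a few serve ubiquitin-like modifiers such as SUMO, NEDD8 and ISG15. USPs are cysteine proteases that trim or remove such chains, and in macrophages both arms set how long signalling proteins last after a receptor or a particle is sensed.

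Levels are log2 signals minus the 75th percentile of the array's non-control spots, so a level of 0 is that percentile, and levels of different probes were not set against each other. A difference is the mean of the NM401 arrays minus that of the control arrays, with its standard error (SE) from limma, a linear model fitted over all probes. A gene is called at a Benjamini-Hochberg adjusted p under 0.05 over the 21684 probes tested, and its brightest tested probe stands for it. The 75th percentile itself was 1236 ± 224 intensity units in control and 2692 ± 172 in NM401 arrays (SD, n = 4 each). The spike-in RNA added to every labelling lay 0.29 ± 0.52 above that percentile in control and at -2.005 ± 0.128 in NM401 (SD, n = 4 each), so higher and lower mean relative to the other RNA of the same array. The control arrays and NM401 replicate 1 share slide 1, while NM401 replicates 2 to 4 lie on slide 2, which holds no control. A fit that blocks on slide, like one kept to slide 1, therefore rests on NM401 replicate 1 alone, and the second assumes that this array varies as the control arrays do. All controls lie in slide row 1 and all NM401 arrays in row 2, so row and treatment cannot be told apart.

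Of 15 macrophage markers, 12 were well above background on all 8 arrays, among them Cd68, Csf1r and Spi1, while Marco was above it on none. Their summed level (log2 of the sum of scaled signals) ranged from 8.49 to 8.74 in control and from 7.64 to 8.19 in NM401 arrays. The single macrophage markers went both ways. Of 14 tested, limma called 5 higher and 5 lower, beside 21.9% higher and 35.4% lower over all genes. Of 7 neutrophil markers 1, Camp, was above background on all arrays, and their summed level ranged from -1.09 to -0.60 in control and from -1.63 to -1.17 in NM401. Epithelial markers numbered 1 of 11 (Foxj1), with Epcam, Cdh1, Krt8, Krt18, Krt19 and Aqp5 above background on no array, and summed from -2.58 to -2.23 in control and from -2.96 to -2.46 in NM401. Lymphocyte markers numbered 2 of 7 (Cd3d and Nkg7, with Cd3e, Cd3g and Cd79b among those on none), and summed from -0.53 to -0.11 in control and from -1.51 to -1.29 in NM401. Fibroblast and endothelial markers numbered 5 of 8 (Cdh5, Col1a2, Dcn, Pecam1 and Vwf), with Col1a1, Col3a1 and Pdgfra on none. They summed from 1.54 to 1.92 in control and from 1.63 to 1.68 in NM401. The part of these shifts in the results below was not tested, and fewer cells of a type and less RNA per cell cannot be told apart in bulk RNA.

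Of the 80 genes, 67 had a probe well above background on at least 4 arrays and were tested, 28 Ube2 and 39 Usp. Of the Ube2 genes 7 were called higher, 3 lower and 18 were not called, counts that became 7 and 5 with normexp background correction and 6 and 5 with the deposited series values. Usp genes were spread both ways, with 9 higher, 11 lower and 19 not called. The leading changes were a rise of the histone deubiquitinase gene Usp16 and of the chain-extending E2 gene Ube2s, and a fall of Usp2. Both families together gave 16 higher and 14 lower calls, 44.8% of the 67. Over all 17444 genes tested, 21.9% were called higher, 35.4% lower and 57.3% either way. The share of members called higher (23.9%) lay near that of all genes, and the share called lower (20.9%) under it. In 33 of the 67 members (49.3%) every NM401 array lay on the same side of every control array, as it did in 53.2% of all genes.

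The changes were small. The median size of the difference, without its sign, was 0.21 over the members and 0.32 over all genes. A change of at least 1.5-fold was seen in 4 of the 67 members (5.97%) and in 24.3% of all genes. Among genes well above background on all 8 arrays the shares were 6.25% of 64 members and 19.95% of 15258 genes. The 4 were Ube2s, Usp16 and Usp35, which were higher, and Usp2, which was lower.

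**Figure D1:**
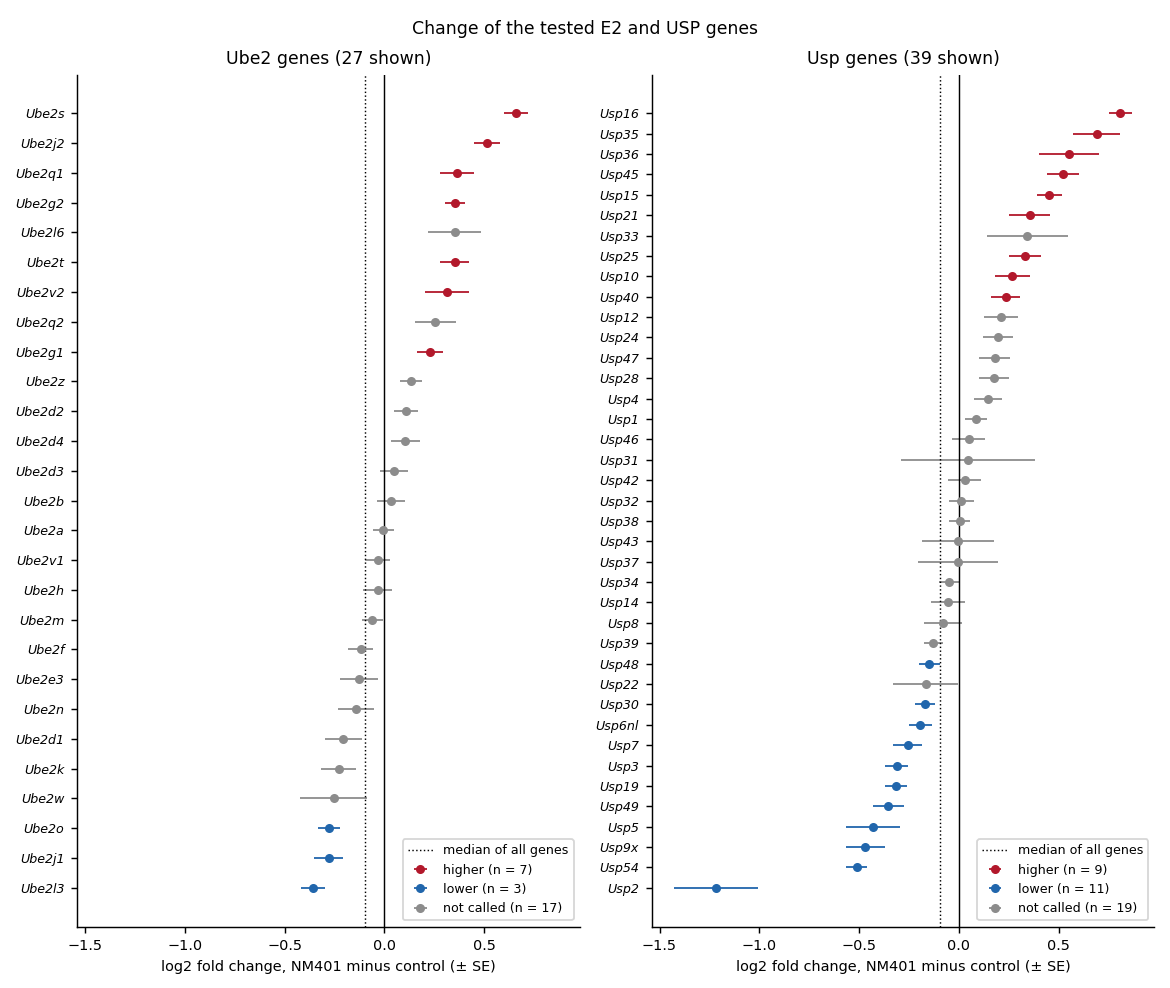
Difference between NM401 and control (log2, ± SE, 4 arrays per group) of the tested genes, with 27 of the 28 Ube2 genes on the left and all 39 Usp genes on the right. Red marks the genes called higher, blue those called lower and grey those not called. The dotted line is the median of all genes at -0.10, and most members lie within 0.5 of 0, with Usp2 at -1.22 standing lowest and Usp16 at 0.81 highest.

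The medians of the 2 families lay together. The median difference was 0.01 in Ube2 and 0.01 in Usp genes, both 0.11 above the median of all genes at -0.10. On single arrays, with each gene set against its control mean, the Ube2 median minus the Usp median was 0.04, -0.03, 0.00 and -0.04 in the control arrays and -0.01, 0.03, 0.02 and -0.01 in the NM401 arrays. The groups overlapped in this measure, and no p was computed for it, since the members are not replicates of a condition.

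The split of calls moved with the scaling between arrays. With each array scaled to its median, which raised every difference by the same amount and the median of all genes from -0.10 to 0.11, 14 Ube2 genes were called higher and 0 lower, and 18 Usp genes higher and 3 lower. Higher calls then made up 91.4% of the member calls, beside 53.3% with the 75th percentile, 64.7% with quantile normalisation and 43.3% with normexp background correction. The same shares over all genes were 64.5%, 38.2%, 49.5% and 22.6%, in that order. The Ube2 and Usp medians lay 0.11 and 0.11 above the median of all genes with median scaling, 0.11 and 0.10 above it with quantile normalisation, and 0.29 and 0.14 above it with normexp. Ube2s, Ube2j2, Usp16 and Usp45 were the 4 members that stayed called under all 19 alternative ways of processing. None of the alternatives scaled the arrays to the spike-in RNA, whose level against the 75th percentile was 0.29 in control and -2.005 in NM401. The falls of Usp30, Usp48 and Usp6nl turned into differences of 0.03, 0.06 and 0.01 with median scaling, none of them called. Blocked by slide, 7 Ube2 genes were called higher and 0 lower by limma, and 6 Usp genes higher and 6 lower, beside 2216 higher and 3525 lower of all 17444 genes. At an unadjusted p under 0.05 that fit gave 7 Ube2 genes higher and 2 lower. Within slide 1, 3 Ube2 and 3 Usp genes were called higher and 0 of either lower, beside 755 higher and 1361 lower of all genes, and at an unadjusted p under 0.05 there were 0 Ube2 and 6 Usp genes lower.

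**Figure D2:**
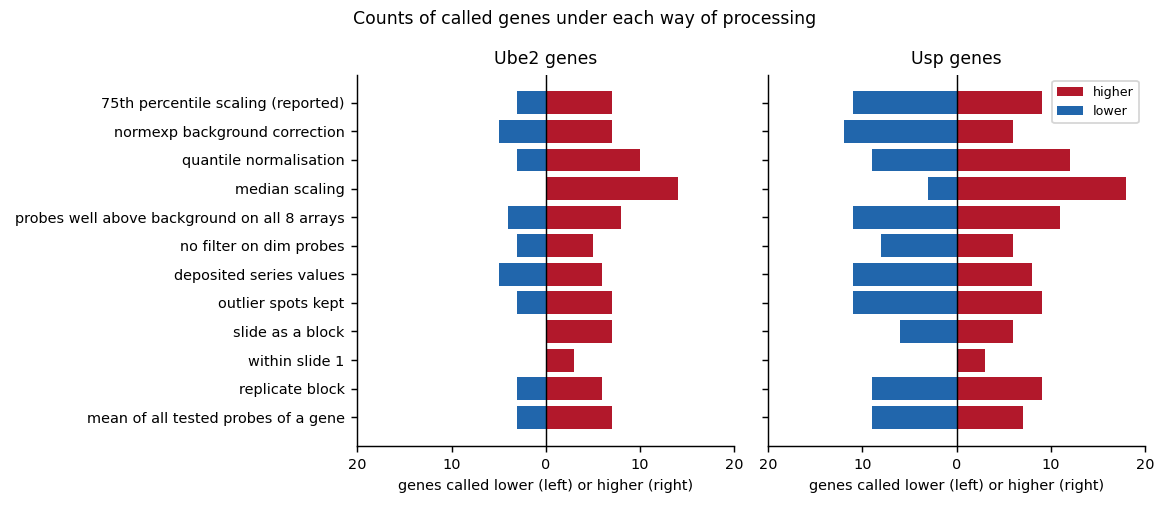
Number of Ube2 genes (left panel) and Usp genes (right panel) called lower (blue, to the left of 0) and higher (red, to the right) under the reported scaling and each of 11 other ways of processing. Median scaling gives the most higher calls in both families, 14 and 18, and within slide 1 neither family has a lower call.

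The array sequences behind 6 of the called changes are shown so that they can be matched to a transcript. Each line gives the 30 bases at the 5′ end of the probe for the gene's brightest tested probe, as the array files list it, in lower case with no part set apart.
Ube2s: ccagagtctgcactcaatgaggaggcaggc
Ube2j2: tttgttatagttgggtttgcggcctttgcc
Ube2j1: ttgctgctgctgttggtttattctactgaa
Usp16: ctaaagtactgaactcacaagcttatctcc
Usp2: gcattgaggagctacaacccttccctcttc
Usp54: caagagtcagctaaactattttagggcaga
In the rn4 build that the file headers name, the Ube2s probe lies at chr1:67748971-67749030, the Ube2j2 probe at chr5:172796320-172796379 and the Ube2j1 probe at chr5:49339240-49339299. The Usp16 probe lies at chr11:27233563-27233622, the Usp2 probe at chr8:47076217-47076276 and the Usp54 probe at chr15:3983035-3983094, and all 6 are listed on the plus strand. Exon and UTR annotation of that build was not used here.

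The E2s that extend chains held the most higher calls among the E2 roles, with 4 of 7 higher and 0 lower by limma. Over all genes, 21.9% were called higher and 35.4% lower. At an unadjusted p under 0.05, Ube2k was lower as well. Of the 4 higher calls, that of Ube2v2 was kept in 10 of the 19 alternatives and that of Ube2g1 in 16. Ube2s builds chains for the anaphase-promoting complex, the ligase that drives cells through mitosis. Its levels were 1.353, 1.4, 1.383 and 1.496 on the control arrays and 1.96, 2.07, 2.15 and 2.08 on the NM401 arrays. Every NM401 array lay above every control array, a difference of 0.66 ± 0.06 (SE) or 1.58-fold (limma adjusted p = 0.000115). In the fit blocked by slide, it was 0.56 (limma adjusted p = 0.00557), and within slide 1 it stayed called (adjusted p = 0.0437). RefSeq lists 4 pseudogene symbols for Ube2s, and signal from such copies cannot be separated here.

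Ube2g2 serves the ligases that clear misfolded proteins from the endoplasmic reticulum. Its levels were 1.14, 1.16, 1.23 and 1.15 in control and 1.45, 1.51, 1.59 and 1.55 in NM401, again without overlap. The difference was 0.35 ± 0.05 (limma adjusted p = 0.000844), and its other probe gave 0.41. After blocking on slide, it was 0.28 (limma adjusted p = 0.0323, and 0.126 within slide 1). Its relative Ube2g1 rose by 0.23 ± 0.07 (limma adjusted p = 0.0194, 0.0383 with slide as a block), and was not called within slide 1 (adjusted p = 0.119) or with the deposited series values, at 0.16. Whether the 2 differ was not tested.

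Ube2n builds signalling chains as a dimer with Ube2v1 or Ube2v2, inactive E2-like partners, in pathways that lead from Toll-like and cytokine receptors to NF-kappaB. Ube2v2 was called higher, by 0.31 ± 0.11 (limma adjusted p = 0.0416), but the value varied with the processing. It was 0.67 with slide as a block (limma adjusted p = 0.00306), and 0.12 and not called with normexp (limma adjusted p = 0.278). Its levels were -2.42, -2.41, -2.36 and -2.42 in control and -1.73, -2.21, -2.23 and -2.18 in NM401. NM401 replicate 1 stood far above the other NM401 arrays, and without it the difference was 0.20 (limma adjusted p = 0.0134). The call was lost without NM401 replicate 4 (adjusted p = 0.0573) and without each control array in turn, where the adjusted p lay between 0.0625 and 0.0819. Ube2v1 (-0.03 ± 0.06, limma adjusted p = 0.675) and Ube2n (-0.14 ± 0.09, limma adjusted p = 0.209) were not called. Ube2n's dimmest probe was called higher at 0.20 while its others read -0.14 and -0.07. RefSeq lists 19 pseudogene symbols for Ube2v1 and 9 for Ube2n, so their signals are uncertain. Ube2k, which can make chains without a ligase, read -0.23 ± 0.09 (limma adjusted p = 0.0531) by its brightest probe and was called lower at -0.54 by the other. Without control replicate 4 the brightest probe was called too, at -0.30 (limma adjusted p = 0.0102).

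The E2 pair of the endoplasmic reticulum moved in opposite directions. Ube2j1 and Ube2j2 are both anchored in its membrane and take part in the disposal of misfolded proteins. Ube2j2 levels were 1.70, 1.69, 1.56 and 1.60 in control and 2.27, 2.12, 2.15 and 2.07 in NM401. The difference was 0.52 ± 0.06 or 1.43-fold (limma adjusted p = 0.000383), and it was 0.64 with slide as a block (limma adjusted p = 0.00463, and 0.0400 within slide 1). Ube2j1 levels were 1.98, 1.90, 1.82 and 1.77 in control and 1.729, 1.602, 1.505 and 1.512 in NM401, lower on every NM401 array. It fell by 0.28 ± 0.07 (limma adjusted p = 0.0121), and its other probe was also called, at -0.23. With slide as a block the Ube2j1 difference was -0.14 and not called (limma adjusted p = 0.323), as with median scaling, where it was -0.08.

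The E2s that add the first ubiquitin gave 0 higher and 1 lower call by limma among 7 tested. The shares over all genes were 21.9% and 35.4%. At an unadjusted p under 0.05 the counts of these E2s were the same. The lower one, Ube2l3, works with RING-between-RING ligases, the linear chain complex of NF-kappaB signalling among them. Its levels were 1.71, 1.77, 1.73 and 1.65 in control and 1.49, 1.32, 1.31 and 1.30 in NM401, with NM401 replicate 1 nearest to the controls. It fell by 0.36 ± 0.06 (limma adjusted p = 0.00163). Blocked by slide, it was -0.22 (limma adjusted p = 0.0602), and with median scaling -0.15, both not called. Its other 3 probes read 0.08, -0.19 and -0.04, of which -0.19 was called, so its probes disagree. The Ube2d enzymes, which work with a wide range of ligases, were not called: Ube2d1 read -0.21 ± 0.09, Ube2d2 0.11 ± 0.06 and Ube2d3 0.05 ± 0.07. Without NM401 replicate 1, Ube2d1 was called lower at -0.29 (limma adjusted p = 0.0121). The gene the array names Ube2d4 read 0.11 ± 0.07, and its accession now carries the symbol Ube2d2b in RefSeq. Ube2e3 read -0.13 ± 0.09 and was not called, while Ube2e2 was not tested.

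Of the 4 E2s that serve other modifiers, 0 were called by limma, beside 57.3% of all genes. At an unadjusted p under 0.05, 1 of the 4 was higher. Ube2m and Ube2f, the NEDD8 E2s, read -0.06 ± 0.05 and -0.12 ± 0.06, and neither was called by limma. Ube2l6, the ISG15 E2, read 0.35 ± 0.13 and lay just outside the threshold (limma adjusted p = 0.0501). With normexp Ube2l6 turned to -0.12 (limma adjusted p = 0.243). It was called without control replicate 2 (0.43, limma adjusted p = 0.0324) and without NM401 replicate 4 (0.44, limma adjusted p = 0.0232).

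Among chromatin E2s, Ube2t, which ubiquitinates FANCD2 in the Fanconi anaemia repair pathway, was called higher. Its levels were -0.49, -0.61, -0.32 and -0.57 in control and -0.08, -0.16, -0.17 and -0.19 in NM401. The groups did not overlap and the difference was 0.35 ± 0.07 (limma adjusted p = 0.00407, 0.0325 with slide as a block at 0.42). The histone H2B E2s Ube2a (-0.01 ± 0.05) and Ube2b (0.03 ± 0.07) were not called, but Ube2a was called higher with median scaling, at 0.20.

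Among the remaining and large E2s, Ube2q1 rose and Ube2o fell. Ube2q1 levels were -1.49, -1.72, -1.50 and -1.78 in control and -1.15, -1.37, -1.26 and -1.25 in NM401. The difference was 0.36 ± 0.09 (limma adjusted p = 0.00780), and 0.47 with slide as a block (limma adjusted p = 0.0354). Its relative Ube2q2 read 0.26 ± 0.10 and was not called (limma adjusted p = 0.0648), except without control replicate 2. Ube2o is a large enzyme that joins E2 and E3 activity and marks unassembled proteins. Its levels were -1.78, -1.84, -1.88 and -1.88 in control and -2.09, -2.18, -2.18 and -2.05 in NM401, and it fell by 0.28 ± 0.05 (limma adjusted p = 0.00325). In the fit blocked by slide, Ube2o read -0.25 and was not called (limma adjusted p = 0.0692), and with median scaling it read -0.07, not called. Ube2h and Ube2z were not called.

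**Figure D3:**
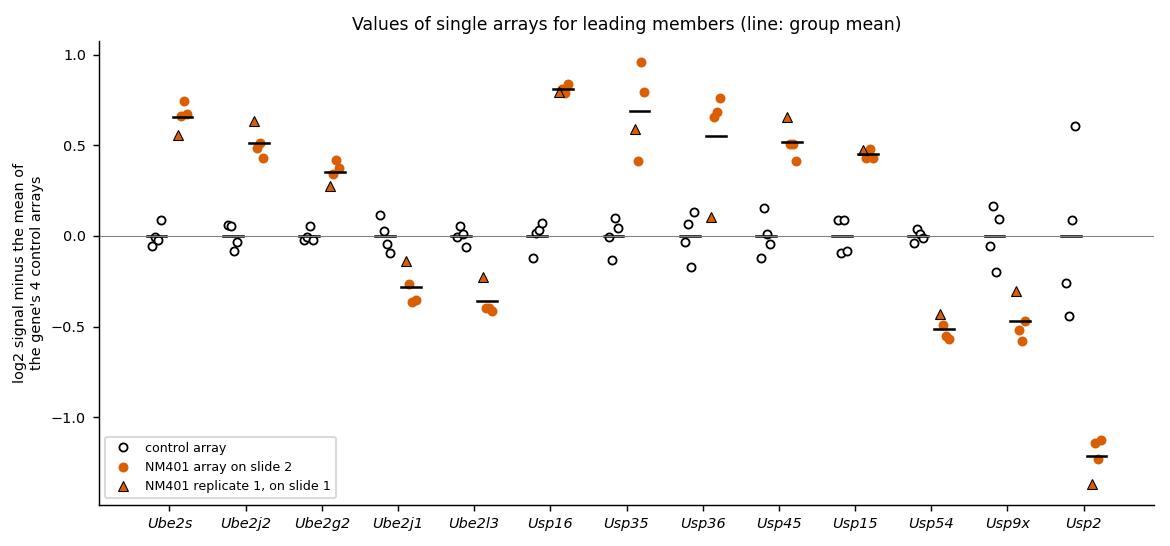
Level on every array (log2) minus the mean of the same gene's 4 control arrays, for 13 leading members. Open circles are control arrays, filled circles NM401 replicates 2 to 4, triangles NM401 replicate 1, and bars the group means. The groups are apart in all genes shown but Usp36, whose NM401 replicate 1 lies among the controls, and the control arrays of Usp2 are widely spread.

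Among the USPs that act on histones, 2 of 5 tested were called higher and 2 lower, beside 21.9% and 35.4% over all genes. Usp16 removes ubiquitin from histone H2A. Its levels were -0.41, -0.27, -0.25 and -0.21 in control and 0.51, 0.53, 0.50 and 0.55 in NM401, the largest difference of any member relative to its SE. The difference was 0.81 ± 0.06 or 1.75-fold (limma adjusted p = 4.99e-05), and its other probe gave 0.72. After blocking on slide, it was 0.79 (limma adjusted p = 0.00325), and it stayed called within slide 1 (adjusted p = 0.0357). Usp21, another H2A deubiquitinase, had levels of -3.80, -3.40, -3.65 and -3.67 in control and -3.10, -3.37, -3.24 and -3.40 in NM401. Control replicate 2 lay just under the lowest NM401 array, and the difference was 0.36 ± 0.10 (limma adjusted p = 0.0180, 0.0321 with slide as a block at 0.53). With normexp background correction it shrank to 0.01 and was not called.

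Usp49, which acts on histone H2B, was lower. Its levels were -2.87, -3.05, -2.88 and -2.86 in control and -3.14, -3.20, -3.39 and -3.34 in NM401. It fell by 0.35 ± 0.08 (limma adjusted p = 0.00507), but read -0.22 with slide as a block (limma adjusted p = 0.161) and -0.15 with median scaling, both not called. Usp3, a further histone deubiquitinase, fell by 0.31 ± 0.06 (limma adjusted p = 0.00251, 0.0235 with slide as a block), and with median scaling it read -0.11 and was not called. Usp22, the deubiquitinase of the SAGA coactivator, read -0.17 ± 0.16 on a dim probe and was not called. It was called lower with slide as a block, at -0.60 (limma adjusted p = 0.0402), and with normexp, at -0.64 (limma adjusted p = 0.00109), and read 0.089 with quantile normalisation, not called (limma adjusted p = 0.689).

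All 3 USPs tied to p53 and its ligase Mdm2 were called, Usp2 and Usp7 lower and Usp10 higher, where 57.3% of all genes were called either way. The call of Usp7 was kept in 14 of the 19 alternatives and that of Usp10 in 9. Usp2, whose protein stabilises Mdm2 and also cyclin D1, carried the widest difference of any member. Its levels were -0.05, -0.24, 0.30 and 0.82 on the control arrays and -1.16, -0.94, -1.02 and -0.92 on the NM401 arrays. The control arrays were spread over more than 1 log2 unit and the NM401 arrays lay close together below all of them. It fell by 1.22 ± 0.21, which is 2.32-fold lower (limma adjusted p = 0.00173). With slide as a block it was -1.37 (limma adjusted p = 0.0243), and within slide 1 it was not called (adjusted p = 0.0803), while with the other 18 alternatives it kept its call. Usp7, which acts on both p53 and Mdm2, fell by 0.26 ± 0.07 (limma adjusted p = 0.0161). Blocked by slide, Usp7 read -0.06 and was not called (limma adjusted p = 0.536), as with median scaling at -0.05, and its other probe read 0.13. Usp10, which deubiquitinates p53 in the cytoplasm, was called higher at 0.27 ± 0.09 (limma adjusted p = 0.0289, 0.168 with slide as a block), but read -0.10 with normexp and -0.01 with the deposited series values, and lost its call when control replicate 1 or any single NM401 array was left out (adjusted p from 0.0510 to 0.0727).

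The USPs of innate immune signalling gave 2 higher calls of 4 tested and 0 lower by limma, with 0 lower at an unadjusted p under 0.05 too. Of all genes, limma called 21.9% higher and 35.4% lower. Usp15, which acts on ligases and receptors of the TGF-beta and RIG-I pathways, rested on probes that disagree, as set out below. By its brightest probe its levels were -1.09, -1.27, -1.09 and -1.26 in control and -0.70, -0.75, -0.70 and -0.75 in NM401. The groups did not overlap and the difference was 0.45 ± 0.06 (limma adjusted p = 0.000567, 0.0139 with slide as a block at 0.48). Its relative Usp4 read 0.15 ± 0.07 and was not called, except without NM401 replicate 1, where it was 0.20 (limma adjusted p = 0.0285). Usp11 was not tested. Usp25, which deubiquitinates TRAF proteins in interleukin and Toll-like receptor signalling, rose by 0.33 ± 0.08 (limma adjusted p = 0.00854), and its other probe gave 0.50. The rise was 0.47 with slide as a block (limma adjusted p = 0.0209) and 0.13 with normexp, where it was not called (limma adjusted p = 0.119). Its relative Usp28 read 0.18 ± 0.07 and was not called, except without control replicate 1.

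Of the USPs that serve the proteasome and free ubiquitin chains, Usp5 was lower and Usp14 was not called. Usp5 takes free chains apart into single ubiquitins. Its levels were -1.46, -1.47, -1.50 and -1.05 in control and -2.11, -1.70, -1.75 and -1.63 in NM401. Control replicate 4 stood above the other controls and NM401 replicate 1 below the other NM401 arrays. It fell by 0.43 ± 0.14 (limma adjusted p = 0.0265), by 0.74 with slide as a block (limma adjusted p = 0.0183), and read -0.44 and lost its call narrowly without NM401 replicate 3. With median scaling it read -0.23 and was not called. Its relative Usp13 was not tested. Usp14, which trims chains on the proteasome, read -0.05 ± 0.09 by its brightest probe and was called higher at 0.45 by the other.

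Of the 3 USPs that are activated by Wdr48, limma called 0, beside 57.3% of all genes. At an unadjusted p under 0.05, 1 of the 3 was higher. Usp1 read 0.09 ± 0.05, Usp12 0.21 ± 0.08 and Usp46 0.05 ± 0.08. Usp12 was called higher without control replicate 3, at 0.28 (limma adjusted p = 0.00969).

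Among the USPs of the endosome, endoplasmic reticulum and mitochondrion, limma called 0 of 5 higher and 2 lower. The shares over all genes were 21.9% and 35.4%. At an unadjusted p under 0.05, 0 of the 5 were higher too. Usp19, anchored in the endoplasmic reticulum, fell by 0.32 ± 0.06 (limma adjusted p = 0.00201, 0.0364 with slide as a block) but was not called with median scaling, at -0.11. Usp30, which sits on the mitochondrial outer membrane and opposes mitophagy, fell by 0.17 ± 0.05 (limma adjusted p = 0.0237) but read -0.12 and was not called with slide as a block (limma adjusted p = 0.288). Its call was also lost when any 1 of control replicates 2 and 3 and NM401 replicates 2, 3 and 4 was left out (adjusted p from 0.0505 to 0.0687). Usp33 read 0.34 ± 0.20 and was not called, and its relative Usp20 was not tested. Usp8, which sorts receptors at the endosome, and Usp32 were not called.

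The large USPs moved in different directions. Of 10 tested, 3 were higher, Usp35, Usp45 and Usp40, and 2 lower, Usp9x and Usp48. The shares over all genes were 21.9% higher and 35.4% lower. Usp45, which acts on the repair nuclease subunit ERCC1, had levels of -2.67, -2.39, -2.53 and -2.59 in control and -1.89, -2.03, -2.04 and -2.13 in NM401. The difference was 0.52 ± 0.08 or 1.44-fold (limma adjusted p = 0.000922), its other probe gave 0.34, and with slide as a block it was 0.65 (limma adjusted p = 0.00769, and 0.0471 within slide 1). Usp35 had levels of -4.47, -4.60, -4.36 and -4.42 in control and -3.87, -4.05, -3.50 and -3.67 in NM401, dim but without overlap. The difference was 0.69 ± 0.12 or 1.61-fold (limma adjusted p = 0.00173). In the fit blocked by slide, it was 0.59 (limma adjusted p = 0.0543, and 0.0480 within slide 1), and with normexp background correction it was 0.095 and not called.

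Usp9x, which protects Mcl1 and other substrates from the proteasome, was lower by both of its probes. Its levels were -1.38, -1.16, -1.53 and -1.23 in control and -1.63, -1.84, -1.90 and -1.80 in NM401. It fell by 0.47 ± 0.10 (limma adjusted p = 0.00401), and the other probe read -0.73. After blocking on slide, it read -0.31 and was not called (limma adjusted p = 0.135). Usp40 (0.23 ± 0.07, limma adjusted p = 0.0244) read 0.091 with slide as a block and was not called there (limma adjusted p = 0.506). It also lost its call without NM401 replicate 2, 3 or 4, with adjusted p from 0.0609 to 0.0691. The differences of the 4 tested Usp40 probes had different signs. Usp48 (-0.15 ± 0.05, limma adjusted p = 0.0375, 0.0788 with slide as a block) lost its call when any 1 of control replicates 1, 2 and 4 and NM401 replicates 1, 2 and 4 was left out, with adjusted p from 0.0595 to 0.100. Usp24, Usp34, Usp38, Usp43 and Usp47 were not called, but Usp47 was called higher with slide as a block, at 0.35 (limma adjusted p = 0.0334), against 0.18 without it.

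Usp36, a nucleolar deubiquitinase that supports ribosome production, was called higher but its groups overlapped. Its levels were -1.54, -1.44, -1.68 and -1.38 in control and -1.41, -0.85, -0.83 and -0.75 in NM401. NM401 replicate 1, the only NM401 array on slide 1, lay within the control range, and the other 3 lay well above it. The difference was 0.55 ± 0.15 (limma adjusted p = 0.0135) over all arrays and 0.10 with slide as a block (limma adjusted p = 0.543). Usp39, a splicing factor that has lost protease activity, read -0.13 ± 0.05 just outside the threshold (limma adjusted p = 0.0504), while its dimmest probe was called lower at -0.47.

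Usp54 was lower. Its levels were -1.85, -1.77, -1.80 and -1.82 in control and -2.24, -2.30, -2.36 and -2.38 in NM401, with little spread in either group. It fell by 0.51 ± 0.05, 1.43-fold lower (limma adjusted p = 0.000167), and by 0.43 with slide as a block (limma adjusted p = 0.00784), though within slide 1 it was not called (adjusted p = 0.0544). Usp6nl, which shares only the start of its name with the family and codes for a Rab GTPase-activating protein, fell by 0.19 ± 0.06 by its brightest probe (limma adjusted p = 0.0195, 0.0637 with slide as a block).

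Probes of the same gene did not always move together. Of the 67 genes, 25 had more than 1 tested probe: in 11 of them the differences had different signs, in 7 every probe was called in the same direction, in 8 none was called, and in 2, Usp15 and Usp6nl, probes were called in opposite directions. The 7 that moved as 1 include Ube2g2, Ube2j1, Usp9x, Usp16, Usp25 and Usp45, while Ube2v2, the seventh, depends on single arrays as given above. The probes of the other pair are shown since they decide the direction; each line holds the 30 bases at the 5′ end of the probe, in order of brightness.
Usp15 brightest probe: agtgacgaagacagcaatgataatgacaat
Usp15 middle probe: aagtatatgagtaacacatttgagccactg
Usp15 dimmest probe: gaggttaatattttgtctgcacttgggttc
Usp6nl brighter probe: tggcttctggtctggtgccctcttgtactc
Usp6nl dimmer probe: taaatgtatgtagacatgtagttgaggatc
In rn4 these lie at chr7:62871453-62871512, chr7:62932547-62932606 and chr7:62869696-62869755 for Usp15, and at chr17:83129473-83129532 and chr17:83132571-83132630 for Usp6nl. The brightest Usp15 probe rose by 0.45, the middle one read -0.14 ± 0.11 (limma adjusted p = 0.338), and the dimmest fell by 0.19 ± 0.06 (limma adjusted p = 0.0334). The dimmest Usp15 probe read -1.93, -1.87, -1.96 and -2.10 in control and -2.09, -2.20, -2.20 and -2.13 in NM401, so that NM401 replicate 1 lay level with the lowest control. Averaged over its probes Usp15 read 0.04 and was not called. The dimmer Usp6nl probe read -3.29, -3.44, -3.52 and -3.64 in control and -3.09, -3.23, -3.10 and -3.34 in NM401, overlapping by 1 control array, and rose by 0.28 ± 0.09 (limma adjusted p = 0.0287). Averaged over both, Usp6nl read 0.05.

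**Figure D4:**
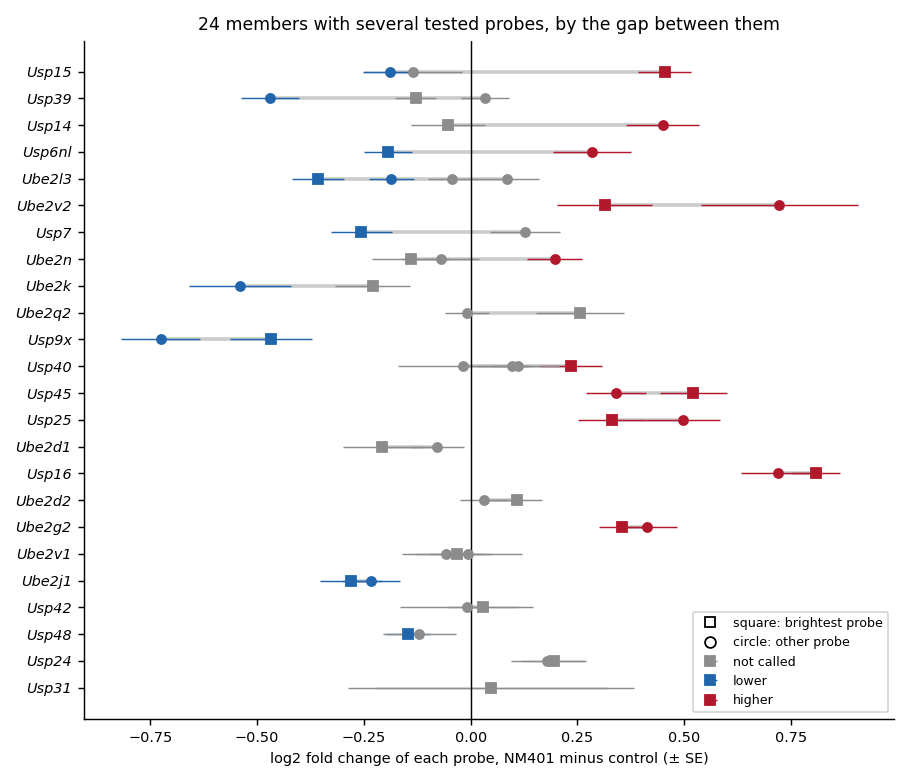
Difference between NM401 and control (log2, ± SE) of each tested probe of 24 of the 25 members with more than 1, ordered by the gap between their probes, widest at the top. Squares are the brightest probes, which stand for the gene, and circles the others, in red where called higher, blue where called lower and grey where not called. Usp15 has the widest gap, from -0.19 to 0.45, and the Usp16 probes lie together at 0.81 and 0.72.

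The rest of the ubiquitin pathway was read from 5 lists of genes. The E1 activating enzymes fell more often than they rose, with 5 of 8 lower (62.5%) and 1 higher (12.5%). Over all genes, 35.4% were called lower and 21.9% higher. Uba1, the main ubiquitin E1, fell by 0.57 ± 0.06, Uba7, the ISG15 E1, by 0.75 ± 0.08 and Atg7, the E1 of autophagy, by 0.53 ± 0.06, while Uba3, the catalytic part of the NEDD8 E1, rose by 0.46 ± 0.06 (limma adjusted p from 0.000178 to 0.000439). With slide as a block 3 of the 8 were lower and 1 higher, and with median scaling 3 and 2. The ubiquitin and ubiquitin-like genes gave 5 lower and 3 higher of 13 (38.5% and 23.1%), near the shares of all genes. The polyubiquitin gene Ubb fell by 0.54 ± 0.05 (limma adjusted p = 0.000154), though it read -0.03 with quantile normalisation and was not called there. Isg15, an interferon-induced modifier, rose by 0.79 ± 0.07 (limma adjusted p = 0.000120). With quantile normalisation this list gave 1 lower and 5 higher calls, the opposite balance, while all genes gave 4873 lower and 4776 higher.

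Among the E3 ligases 24 of 63 (38.1%) were higher and 18 (28.6%) lower, beside 21.9% and 35.4% over all genes. With normexp the balance turned to 16 and 27, while calls over all genes moved to 2741 higher and 9406 lower. Cblb, which restrains immune receptor signalling, fell by 0.83 ± 0.06, and Cop1 and Ube3a rose by 0.47 ± 0.06 and 0.43 ± 0.05 (limma adjusted p from 4.57e-05 to 0.000335). The other deubiquitinating and modifier-cleaving enzymes gave 14 higher and 7 lower of 33 (42.4% and 21.2%), and 11 of each with normexp. Stambpl1, an endosomal deubiquitinase, rose by 0.78 ± 0.06, Senp6, which trims SUMO chains, by 0.64 ± 0.06 and Uchl5, a deubiquitinase bound to the proteasome, by 0.47 ± 0.05 (limma adjusted p from 6.10e-05 to 0.000198). The partners, receptors and shuttles gave 4 higher and 9 lower of 26, beside 21.9% higher and 35.4% lower over all genes. The counts were 7 and 6 with median scaling and 7 and 8 with quantile normalisation. All genes gave 6113 higher and 3360 lower calls in the first and 4776 and 4873 in the second. Tax1bp1, an autophagy receptor and partner of A20, rose by 0.64 ± 0.05, while the shuttle genes Ubqln2 and Ubxn1 fell by 0.86 ± 0.09 and 0.59 ± 0.06 (limma adjusted p from 5.18e-05 to 0.000165). No difference between these lists and the Ube2 or Usp genes was tested.

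**Figure D5:**
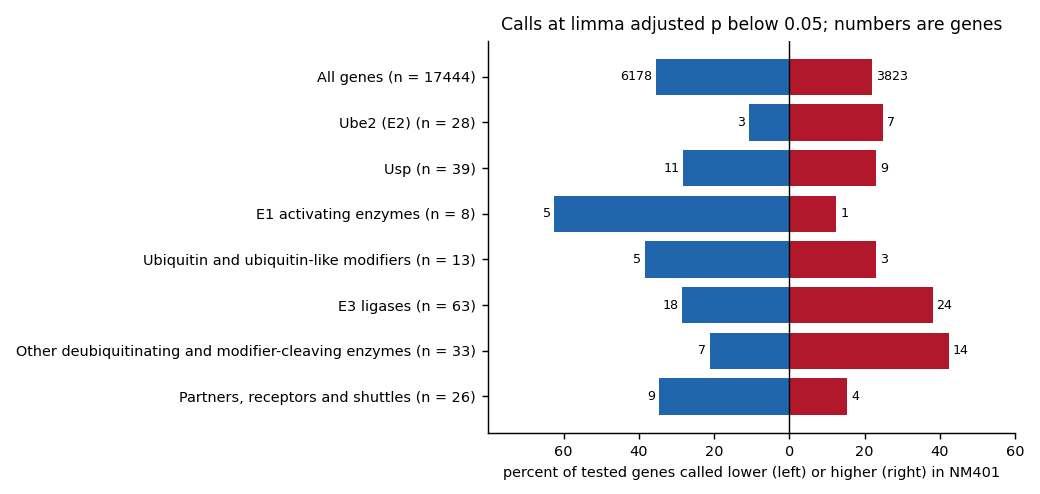
Percent of tested genes called lower (blue, left) and higher (red, right) in NM401 at a limma adjusted p under 0.05, for all genes, both enzyme families and 5 lists of the ubiquitin pathway. Numbers at the bars are genes. All genes show 35.4% lower and 21.9% higher, Ube2 genes 10.7% and 25%, Usp genes 28.2% and 23.1%, and E1 enzymes 62.5% and 12.5%.

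The promoters of 3 called members are shown. Usp16 and Ube2j2 are among the 4 members called under every alternative tried, and Usp2 is the largest fall. They are RefSeq sequences of the GRCr8 build, 250 bases that end at the base before the gene's start, 5′ to 3′ on the gene's strand. Capitals mark a match to any of the 4 motifs searched.
Usp16: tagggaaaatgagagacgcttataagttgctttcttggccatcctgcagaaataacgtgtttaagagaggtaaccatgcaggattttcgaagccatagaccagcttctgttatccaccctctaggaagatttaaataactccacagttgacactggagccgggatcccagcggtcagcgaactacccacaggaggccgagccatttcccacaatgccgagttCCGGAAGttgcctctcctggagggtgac
Ube2j2: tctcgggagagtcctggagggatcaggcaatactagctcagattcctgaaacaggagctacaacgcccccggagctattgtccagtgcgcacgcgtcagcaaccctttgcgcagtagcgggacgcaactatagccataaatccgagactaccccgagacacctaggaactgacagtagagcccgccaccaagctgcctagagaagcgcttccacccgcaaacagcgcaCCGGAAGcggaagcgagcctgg
Usp2: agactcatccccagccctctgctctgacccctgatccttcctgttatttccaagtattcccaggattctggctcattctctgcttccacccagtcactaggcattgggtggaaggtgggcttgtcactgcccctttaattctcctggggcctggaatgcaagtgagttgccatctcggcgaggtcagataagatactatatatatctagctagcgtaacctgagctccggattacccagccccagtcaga
They lie at chr11:40167416-40167665, chr5:171815362-171815611 and chr8:53310620-53310869, all on the plus strand. The ETS core CCGGAAG begins 28 bases before the start of Usp16 and 22 before that of Ube2j2, and none of the motifs searched is in the Usp2 window. Nor is any of them in the windows of Ube2s and Usp45, the other members called under every alternative, which are not shown. A promoter was matched for 67 of the 80 members by symbol, of which 15 were called higher and 10 lower. On either strand, CCGGAAG occurred in 15 of the 67 (22.4%), in 7.27% of all 33469 promoters and in 9.01% of the 21851 of protein-coding genes. It occurred in 5 of the 15 called higher and in 3 of the 10 called lower. TGANTCA, the AP-1 element, occurred in 4.48% of the members and 6.34% of all promoters and the heat shock element core GAANNTTC in 1.49% and 7.23%. The cyclic AMP element TGACGTCA occurred in 0 members and 1.59% of all promoters. A match is a description of the letters, not a site in use, and the motifs do not overlap each other in the windows shown.

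The 13 genes not tested were Ube2e2, Ube2q2l, Ube2ql1, Usp11, Usp13, Usp20, Usp26, Usp27x, Usp29, Usp44, Usp51, Usp53 and Usp9y. None of them was well above background on a control array, and among NM401 arrays only 1 array each of Usp13 and Usp53 was. With no filter on dim probes, Usp26 (-0.63, limma adjusted p = 0.0400) and Usp51 (-0.79, limma adjusted p = 0.0486) were called lower while not well above background on any array, so no fold is given for them.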

How the data were processed

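RNA of 4 control and 4 NM401 cultures was labelled with Cy3 from 100 ng and read on 1-colour Agilent arrays of 62976 spots. The deposited scanner files hold spot intensity from Agilent Feature Extraction 11.0.1.1, per the submitters' processing notes, and per the file headers their processed intensity is background-subtracted and the build is rn4. The deposited series values are intensity too, equal to the median spot intensity in 503808 of 503808 comparisons, unscaled.

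From these files, log2 of the processed intensity minus the array's 75th percentile of 58717 non-control spots was taken, with outlier spots left out and spots of a probe averaged. 47 probes lost all spots. Of 45598 probes, the 21684 that 4 or more arrays read well above background were fitted with limma 3.58.1 in R 4.3.3 (lmFit and eBayes, two-sided, both groups, no covariate), adjusted by Benjamini-Hochberg, and a gene was read by its brightest tested probe. The fit was tested on simulated data without a scaling step or slide effect, so that test does not bear on the choice of scaling. Between 51.7% and 58.0% of spots were well above background and 0 were saturated. The number of arrays limits the precision.

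The genes named with array values are, in each family, the 5 largest differences in each direction among called genes without overlap, plus genes with probes called in opposite directions and Usp36, Ube2v2 and the dimmer probes, chosen after their values were seen. All tested members of paralog groups and the 3 genes of smallest p in each pathway list are also named. The members and lists were chosen with earlier results of these data known. Alternatives changed the background correction, scaling, filter, source of values, outlier spots, probe rule, slide, replicate block and single arrays. Gene names are the array's: 21109 probes matched RefSeq. The single values of 3 genes are not reported here, while counts and medians include them.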

Additional observations from a re-analysis of the deposited data

Results flagged for a closer look

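Within each group of 4 arrays, the highest and lowest array was checked for a gap to its nearest neighbour that, as a share of the group's whole range, passed Dixon's critical value. Of 134 groups (67 members in 2 groups), 11 met this, where chance gives about 1 in 20. Of the 11, 6 were NM401 replicate 1, the only NM401 array on slide 1, and 5 were control arrays. The part of the slide in these gaps was not tested.

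NM401 replicate 1 stood above the other NM401 arrays for Ube2l3 (level 1.49 against 1.30 to 1.32, gap 0.892 of the range), Ube2d1 (-0.88 against -1.22 to -1.16, gap 0.836), Ube2v2 (-1.73 against -2.23 to -2.18, gap 0.890), Usp46 (-2.65 against -2.96 to -2.91, gap 0.846) and Usp47 (-0.999 against -1.24 to -1.22, gap 0.938). It stood below them for Usp36 (-1.41 against -0.85 to -0.75, gap 0.840), at the level of the controls.

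Among control arrays, replicate 4 was low for Ube2g1 (-0.90 against -0.75 to -0.72, gap 0.835) and high for Usp5 (-1.05 against -1.50 to -1.46, gap 0.919). Replicate 2 was low for Usp49 (-3.05 against -2.88 to -2.86, gap 0.897), replicate 1 for Usp30 (-0.83 against -0.72 to -0.70, gap 0.839) and replicate 3 for the dim Usp31 (-5.59 against -4.22 to -4.03, gap 0.882).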

How the results depend on the processing

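Alternatives numbered 19. Of the 30 member calls, 30 kept their direction and call when outlier spots were kept and with probes above background on all 8 arrays, 28 with quantile normalisation, 23 with normexp and with the deposited series values, 20 with no filter, 24 with the mean of all probes, 19 with median scaling, 17 with slide as a block and 6 within slide 1. Without single arrays, 24 kept their call throughout and 6 lost it without at least 1 array; 10 further members were called without some array. The causes were not tested. With normexp, Ube2 genes called lower were 5, the Ube2 and Usp medians 0.055 and -0.10 and their difference 0.15, Usp10 turned to -0.10 and Usp31 to -0.42 (called). With the deposited series values, Ube2 lower calls were 5, the Usp median -0.10, the difference 0.14 and Usp10 -0.0073. With quantile normalisation the medians were 0.10 and 0.093 and Ube2v1 turned to 0.17 (called). With median scaling Ube2 calls were 14 higher and 0 lower, Usp calls 18 and 3, the medians 0.22 and 0.22, and Ube2a turned to 0.20 (called), Usp30 to 0.035, Usp48 to 0.057 and Usp6nl to 0.011. With no filter the Ube2 median was -0.033. With slide as a block Ube2 lower calls were 0, Usp lower calls 6 and the medians 0.055 and 0.064; within slide 1 higher calls were 3 in each family, lower calls 0 in each, with the same medians. With the mean of all probes the Ube2 median minus Usp median was -0.0274 and Usp6nl turned to 0.046. Without single arrays the Usp median ranged from -0.026 to 0.074 and the Ube2 median minus Usp median from -0.040 to 0.013. Over all genes, higher calls made up 38.2% of calls, and 49.5% with quantile normalisation, 64.5% with median scaling, 22.6% with normexp.

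Same-numbered control and NM401 arrays did not deviate together (correlations 0.19, -0.01, 0.09 and -0.06), and not every array correlated best with its own number, so the numbers do not pair the arrays. With the replicate block Ube2 calls were 6 higher and 3 lower and Usp calls 9 and 9, and 25 of the 30 calls were kept. Dim probes limit Usp22, Usp31, Usp33, Usp35 and Usp37, whose signals lie near background.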
